A study of Mus musculus with 6 samples.

Results

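The genes described here encode the nuclear subunits of the mitochondrial respiratory chain and of the ATP synthase, measured in liver from 3 mice that lack S1P lyase (knockout) and 3 wild-type (WT) animals. S1P lyase, the product of Sgpl1, breaks down sphingosine 1-phosphate, a signalling lipid. All 6 animals had a mixed background of C57BL6 and 129sv, no treatment is named in the labels, and each gave 1 liver RNA that was hybridised to 1 Affymetrix mouse genome array. The labels give the genotype of each animal but no age, sex or litter, and no account of how or in which cells the gene was deleted. Members were taken by name alone, from probe sets annotated to exactly 1 symbol of a structural subunit, with assembly factors left out. The rule found 83 genes of the 18194 that the array reads through such probe sets, and 170 probe sets for them. Of these genes, 81 had a probe set bright enough to be tested, and were read by their brightest one.

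Mitochondria release the energy of nutrients by passing electrons along the respiratory chain. NADH enters at complex I and succinate at complex II, coenzyme Q carries the electrons to complex III, and cytochrome c carries them to complex IV, where oxygen is reduced. Complexes I, III and IV pump protons across the inner membrane, and the ATP synthase, also called complex V, lets them flow back to make ATP. Most subunits are encoded in the nucleus, and a few in mitochondrial DNA. Hepatocytes are rich in mitochondria and spend much of this ATP on making glucose and urea. Binding sites for NRF1, for ETS family factors such as GABP, for YY1 and for Sp1 have been described in many promoters of subunit genes.

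As deposited, the knockout livers had lower transcript levels of a set of subunits, found in complexes I, II, III and V. In complex III 0 genes fell with arrays centred on hepatocyte markers, and 0 to 1 fell with any 1 array left out. In complex IV 0 of 16 genes fell by limma (1 at an unadjusted p under 0.05). Genes were grouped by symbol, which leaves Ndufa4 with complex I, and 6 of the 16 are isoforms of other tissues. With 8.09% of all genes falling so few genes give little contrast, and differences between complexes were not tested. Of the 81 genes tested, 14 fell, 2 rose and 65 were not called (limma, adjusted p under 0.05 by Benjamini-Hochberg across the 13370 genes in the fit). That is 17.3% falling and 2.47% rising, where over all genes 8.09% fell and 10.5% rose. The falls were modest, between 1.27-fold and 1.71-fold lower in knockout. The median log2 difference of the 81 genes, knockout minus WT, was -0.14, against -0.05 over all genes as deposited, but 0.02 and 0.11 when arrays were centred on hepatocyte markers and -0.89 and -0.80 when they were centred on poly-A control RNAs. In 33 members all knockout values lay below all WT values and in 4 above, which is 40.7% and 4.94%, against 21.8% and 19% of all genes.

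The steepest called falls were those of Ndufb6, Ndufb5 and Ndufb2 in complex I, Sdhb in complex II and Atp5b in complex V. These 5 genes were also the members called in all 16 other settings tried, including the loss of any 1 array. The 250 bases before their annotated starts are printed, since they were the 5 fallen members of smallest adjusted p with such a sequence at hand. The same stretch is printed for Cox7a2l, a member that rose as deposited. On the poly-A scale Cox7a2l differed by -0.29 and was not called. No sequence is printed for Ndufa2, the other member that rose. The sequences are those of RefSeq on the GRCm38.p6 assembly, written 5′ to 3′ in the direction of the gene, and capitals mark matches, on either strand, to any of the 4 motifs GCGC, any 2 bases, GCGC (NRF1), CCGGAAG (ETS factors), AAGATGGCG (YY1) and GGGCGG (GC box of Sp1).
Ndufb6 (chr4:40279422-40279671, - strand): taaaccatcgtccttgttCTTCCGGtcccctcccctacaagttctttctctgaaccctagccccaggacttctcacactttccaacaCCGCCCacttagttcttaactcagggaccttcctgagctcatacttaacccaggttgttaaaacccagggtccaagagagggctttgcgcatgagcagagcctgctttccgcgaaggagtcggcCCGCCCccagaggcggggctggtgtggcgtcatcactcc
Ndufb5 (chr3:32736813-32737062, + strand): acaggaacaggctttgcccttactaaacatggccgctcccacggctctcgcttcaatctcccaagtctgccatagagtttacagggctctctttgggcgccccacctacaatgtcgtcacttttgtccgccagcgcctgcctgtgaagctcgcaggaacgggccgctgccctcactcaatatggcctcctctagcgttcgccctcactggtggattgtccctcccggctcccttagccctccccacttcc
Ndufb2 (chr6:39592315-39592564, + strand): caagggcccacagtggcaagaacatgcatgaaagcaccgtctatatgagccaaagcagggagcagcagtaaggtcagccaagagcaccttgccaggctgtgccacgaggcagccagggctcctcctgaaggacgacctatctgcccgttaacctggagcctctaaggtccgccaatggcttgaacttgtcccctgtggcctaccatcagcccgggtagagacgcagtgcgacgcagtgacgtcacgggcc
Sdhb (chr4:140961021-140961270, + strand): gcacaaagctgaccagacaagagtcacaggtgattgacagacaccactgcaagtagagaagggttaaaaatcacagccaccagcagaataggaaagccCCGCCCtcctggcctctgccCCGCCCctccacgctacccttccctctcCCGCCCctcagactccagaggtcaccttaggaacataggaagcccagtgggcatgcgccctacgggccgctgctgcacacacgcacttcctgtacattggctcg
Atp5b (chr10:128083057-128083306, + strand): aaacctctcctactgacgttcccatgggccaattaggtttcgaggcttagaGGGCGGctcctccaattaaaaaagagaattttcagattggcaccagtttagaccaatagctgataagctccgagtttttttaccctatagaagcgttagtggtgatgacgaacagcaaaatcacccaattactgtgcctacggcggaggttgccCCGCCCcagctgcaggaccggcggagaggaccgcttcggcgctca
Cox7a2l (chr17:83514334-83514583, - strand): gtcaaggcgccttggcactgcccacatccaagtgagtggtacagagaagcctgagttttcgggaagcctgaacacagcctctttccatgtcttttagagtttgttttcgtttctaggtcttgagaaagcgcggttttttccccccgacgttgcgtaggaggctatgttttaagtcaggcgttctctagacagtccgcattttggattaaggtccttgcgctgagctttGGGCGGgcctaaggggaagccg
The windows of Ndufb5 and Ndufb2 held no match, Sdhb held 3 GC boxes, Ndufb6 held 1 ETS match and 2 GC boxes, Atp5b held 2 GC boxes and Cox7a2l held 1. A window was at hand for 67 of the 83 members. The NRF1 letters were found in 13 of them (19.4%), against 5.64% of 27025 genes with a window. The ETS letters were found in 12 members (17.9%, against 7.83% of all genes with a window), the GC box in 26 (38.8%, against 35.4%) and the YY1 letters in 1 (1.49%, against 0.710%). Genes with a window are not limited to the genes tested in liver, so the members were not set against other genes measured here. Among the 12 fallen members with a window, 3 held the NRF1 letters, 2 the ETS letters, 6 the GC box and 1 the YY1 letters. Among the 54 that were not called, 10 held the NRF1 letters, 10 the ETS letters, 19 the GC box and 0 the YY1 letters. A match to these letters is a description of the sequence and not a measured binding site, and the GC box and the other motifs can overlap.

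**Figure D1:**
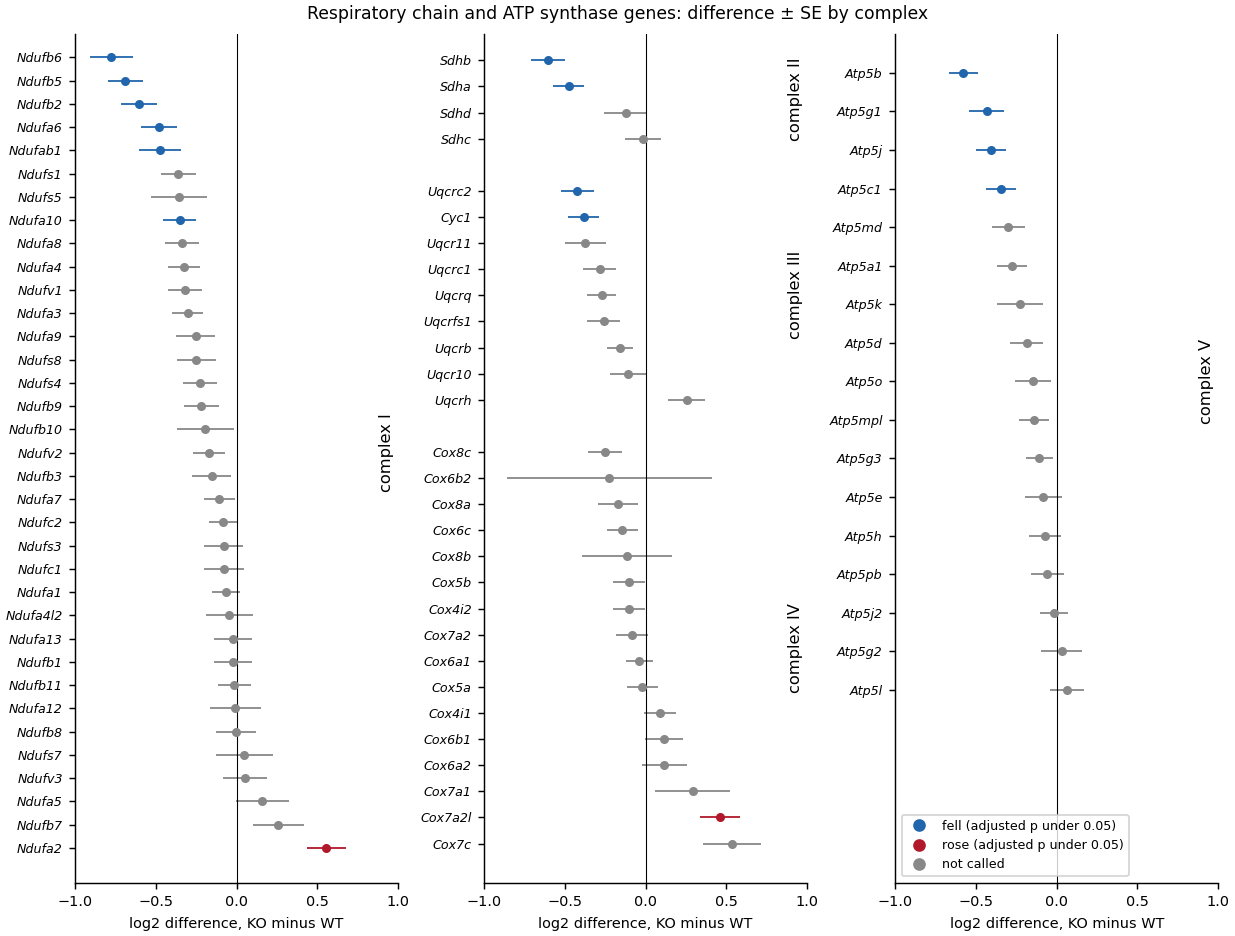
Log2 difference, knockout (KO) minus WT, with its standard error, for the 81 tested members by complex, on the deposited scale. Blue points fell, red points rose and grey points were not called. As deposited, 67 of the 81 differences (82.7%) lie below 0, against 55.6% of all genes. Ndufa2 and Cox7a2l, in red, lie below 0 when arrays are centred on poly-A controls, where neither is called.

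In complex I, the NADH dehydrogenase and the largest of the complexes, 6 of 35 tested genes fell and 1 rose. That is 17.1% and 2.86%, against 8.09% and 10.5% of all genes. Ndufb6, an accessory subunit of the membrane arm, had 9.06, 9.19 and 9.46 log2 in the knockout livers, against 9.92, 9.97 and 10.14 log2 in the WT livers. All knockout livers were lower, by a mean of 0.78 log2 (SE 0.13, limma adjusted p = 0.00627), or 1.71-fold. Ndufb5, another membrane arm subunit, had 9.03, 8.99 and 9.003 log2 in the knockout livers, against 9.71, 9.57 and 9.82 log2 in the WT livers. The knockout values of Ndufb5 lay close together and far from those of WT (log2 difference -0.69, SE 0.11, limma adjusted p = 0.00428). Ndufb2, of the same arm, had 8.78, 8.998 and 8.98 log2 in the knockout livers, against 9.60, 9.43 and 9.54 log2 in the WT livers, again without overlap (log2 difference -0.61, SE 0.11, limma adjusted p = 0.00874).

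The other falls in complex I were smaller. Ndufab1, the acyl carrier protein of mitochondria, and Ndufa6, the subunit that binds it in the matrix arm, fell by 0.47 and 0.48 log2 (limma adjusted p = 0.0389 and 0.0211). Ndufa10, on the matrix face of the membrane arm, fell by 0.35 log2 (SE 0.10, limma adjusted p = 0.0495). Ndufa10 was not called without any 1 of the 6 arrays, Ndufa6 kept its call only without WT replicate 2, and Ndufab1 only without knockout replicate 3 or WT replicate 1. By arm, 3 of the 10 tested Ndufb genes fell, 1 of 8 other membrane arm genes and 1 of 14 genes of the peripheral arm, where NADH is oxidised and the iron-sulphur clusters lie. With 8.09% of all genes falling, the last 2 counts are near the background, and the difference between arms was not tested. Ndufs1 and Ndufv1, which hold clusters and the flavin of that arm, differed by -0.36 and -0.32 log2 and were not called (limma adjusted p = 0.0527 and 0.0747), although their groups did not overlap. Ndufs7, a cluster protein next to the coenzyme Q site, differed by 0.05 (SE 0.18) as deposited and by -0.70 on the poly-A scale.

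Ndufa2, a small accessory subunit of the peripheral arm, went the other way. It had 10.50, 10.44 and 10.23 log2 in the knockout livers, against 9.95, 9.68 and 9.87 log2 in the WT livers. All knockout values were above all WT values, and the gene rose as deposited by 0.56 log2 (SE 0.12, limma adjusted p = 0.0173), or 1.47-fold, though its difference was -0.19 with arrays centred on poly-A controls. Its probe set is of a kind that can read more than 1 transcript, as are those used for Ndufab1 and Atp5c1. Ndufa2 was not called without knockout replicate 1 or 2 or WT replicate 2. Ndufa4, first counted with complex I and later found in complex IV, differed by -0.33 (SE 0.10) and its relative Ndufa4l2 by -0.04 (SE 0.15), neither called. Both are counted here with complex I by their symbols. All knockout values of Ndufa4 lay below all WT values.

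Complex II, succinate dehydrogenase, also works in the citric acid cycle and has 4 subunits. By their brightest probe sets, the 2 genes of its catalytic head fell while the 2 of its membrane anchor were not called. Over all genes 8.09% fell. Sdhb, the iron-sulphur protein, had 10.19, 10.24 and 10.12 log2 in the knockout livers, against 10.92, 10.69 and 10.76 log2 in the WT livers. Its groups were far apart (log2 difference -0.61, SE 0.10, limma adjusted p = 0.00626), and knockout was 1.52-fold lower. Sdha, the flavoprotein that oxidises succinate, had 10.25, 10.10 and 10.13 log2 in the knockout livers, against 10.57, 10.65 and 10.69 log2 in the WT livers. It fell by 0.48 log2 (SE 0.10, limma adjusted p = 0.013), without overlap. Sdha was not called without knockout replicate 2, with probe sets averaged by gene, or with arrays centred on hepatocyte markers. The anchor genes Sdhc and Sdhd averaged 9.82 ± 0.15 log2 in knockout and 9.84 ± 0.02 in WT (SD, n = 3 each) for Sdhc, and 9.87 ± 0.07 log2 in knockout and 9.99 ± 0.23 in WT (SD, n = 3 each) for Sdhd. Their differences of -0.02 (SE 0.11) and -0.12 (SE 0.13) lay within the spread of the arrays, and whether they differ from those of the head was not tested. Another Sdhc probe set differed by -0.23 (SE 0.12), with all knockout values below all WT values, and another of Sdhd by 0.12 (SE 0.16). Other Sdha probe sets differed by -0.32 (SE 0.11), without overlap, and, at a dim level, by 0.15 (SE 0.15). None of these other probe sets was called.

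In complex III, cytochrome bc1, 2 of 9 tested genes fell and none rose (22.2% and 0%, against 8.09% and 10.5% of all genes). Uqcrc2, a core protein of the matrix side, had 10.12, 9.88 and 10.03 log2 in the knockout livers, against 10.43, 10.40 and 10.47 log2 in the WT livers (log2 difference -0.42, SE 0.10, limma adjusted p = 0.0255). Cyc1, which is cytochrome c1 itself, had 10.56, 10.56 and 10.37 log2 in the knockout livers, against 10.87, 10.86 and 10.91 log2 in the WT livers (log2 difference -0.38, SE 0.10, limma adjusted p = 0.0307). In both genes these knockout and WT values, of the brightest probe set, were apart. A second Uqcrc2 probe set had 9.90, 9.74 and 9.85 log2 in the knockout livers, against 9.84, 9.92 and 10.08 log2 in the WT livers. Its groups overlapped and it was not called (log2 difference -0.12, SE 0.11). The other core protein, Uqcrc1, and the Rieske iron-sulphur protein, Uqcrfs1, differed by -0.28 and -0.26 log2 and were not called (limma adjusted p = 0.0915 and 0.12). In 7 of the 9 genes all knockout values lay below all WT values as deposited, against 21.8% of all genes. Uqcrh, the acidic hinge protein that helps cytochrome c dock, lay above instead, by 0.25 (SE 0.12), and was not called. Uqcrc2 was not called without knockout replicate 2 or any 1 of the WT replicates, and Cyc1 was not called without any 1 of the 6 arrays.

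**Figure D2:**
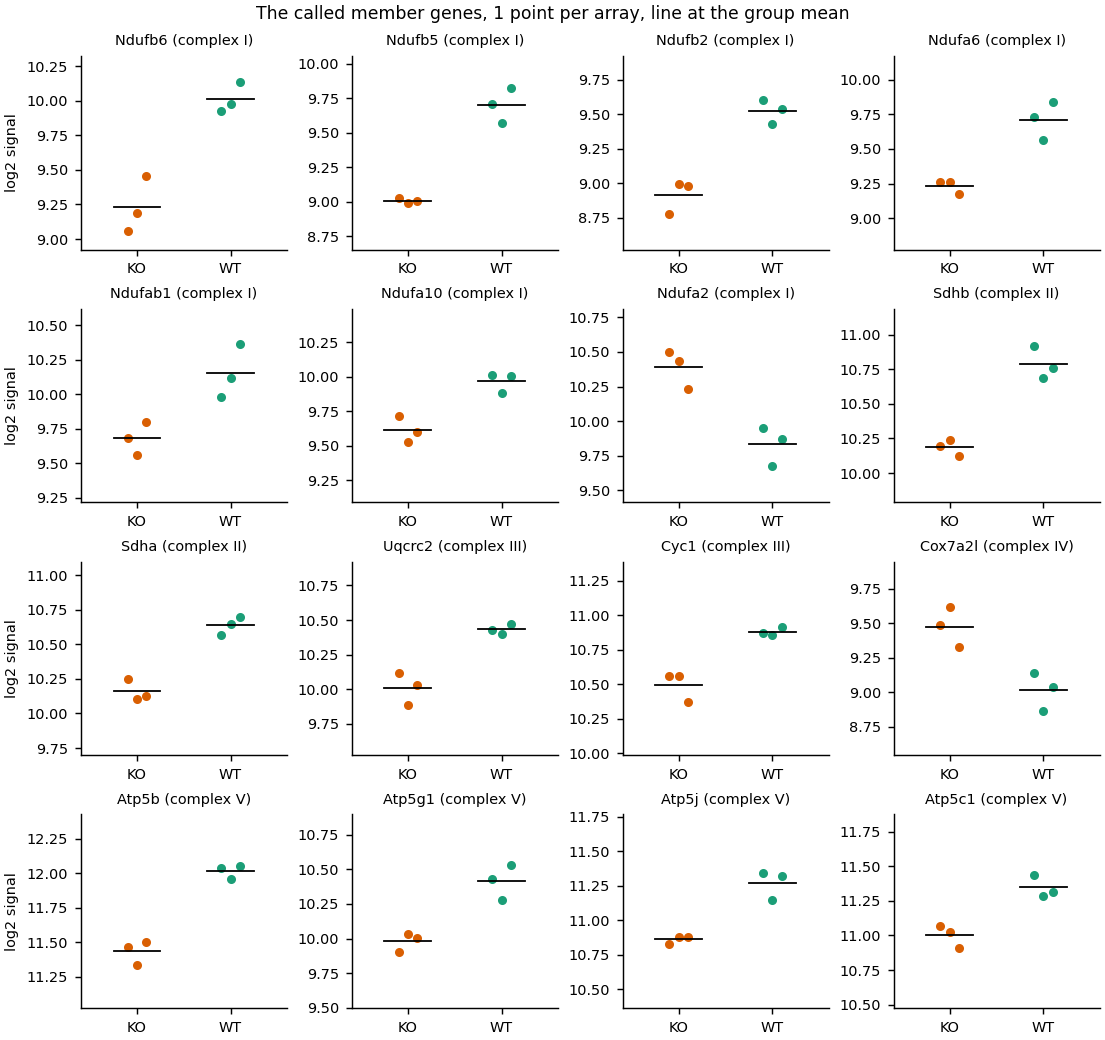
Log2 signal of the 16 called members as deposited, 1 point per array, knockout (KO) left of WT, with a line at each group mean; every panel spans the same range of log2. The groups do not overlap in any panel, and Ndufa2 and Cox7a2l are the panels in which knockout is higher. That holds for the deposited scale and not for the poly-A scale, where neither gene is called.

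In complex IV, cytochrome c oxidase, 0 of 16 tested genes fell by limma at an adjusted p under 0.05, and 1 rose. That is 0% and 6.25%, against 8.09% and 10.5% of all genes. At an unadjusted p under 0.05, 1 gene was lower and 2 were higher. Cox4i1, the isoform of subunit 4 in liver and most tissues, had 11.91, 11.81 and 11.64 log2 in the knockout livers, against 11.70, 11.64 and 11.76 log2 in the WT livers. The groups overlapped and the difference was 0.09 (SE 0.10) as deposited, and -0.66 with arrays centred on poly-A controls. By their brightest probe sets, Cox5a and Cox5b differed by -0.02 (SE 0.10) and -0.10 (SE 0.10), Cox6a1 by -0.04 (SE 0.08), Cox7a2 by -0.09 (SE 0.10) and Cox8a by -0.17 (SE 0.12). Other probe sets of Cox5a, Cox5b and Cox7a2 differed by -0.25 (SE 0.09), -0.19 (SE 0.10) and -0.28 (SE 0.10), with all knockout values below all WT values. Another probe set of Cox6c differed by 0.35 (SE 0.15), with overlap. The remaining ones of Cox5a and Cox5b overlapped, and none of these other probe sets was called. Cox6b1, on the intermembrane space side, differed by 0.11 (SE 0.12) as deposited and by -0.64 on the poly-A scale. The median of the 16 genes was -0.06. No gene of complex IV fell when any 1 array was left out, where 3.93 to 7.06% of all genes fell. On the poly-A scale 13 of the 16 fell, where 75.7% of all genes fell.

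The isoforms that belong to other tissues were not called. Cox6a2, Cox7a1 and Cox8b, the heart and skeletal muscle isoforms, differed by 0.11 (SE 0.14), 0.29 (SE 0.23) and -0.12 (SE 0.28), none called. Cox7a1 had 4.44, 3.75 and 3.47 log2 in the knockout livers, against 3.48, 3.52 and 3.78 log2 in the WT livers. Only knockout replicate 1 stood above the others. Cox4i2, the lung isoform, differed by -0.10 (SE 0.10), and Cox8c, a testis isoform, by -0.25 (SE 0.11). Cox6b2, also of testis, had 4.32, 3.87 and 5.50 log2 in the knockout livers, against 4.25, 3.85 and 6.26 log2 in the WT livers, so that replicate 3 was high in each group. The probe sets of Cox7b2, a testis isoform, and Ndufb4, of complex I, were too dim to test, at 2.25 ± 0.10 and 2.54 ± 0.13 log2 in knockout and 2.40 ± 0.12 and 2.65 ± 0.15 in WT (SD, n = 3 each). Of 12 muscle markers 6 could be tested, and 0 were called by limma, nor did any reach an unadjusted p under 0.05. Their summed linear signal was 121, 119 and 269 in the knockout livers and 122 to 127 in the WT livers, so that knockout replicate 3 stood apart.

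Cox7a2l, a relative of subunit 7a that helps join complexes III and IV into supercomplexes, rose as deposited, though its difference was -0.29 on the poly-A scale. It had 9.48, 9.62 and 9.33 log2 in the knockout livers, against 9.14, 8.87 and 9.04 log2 in the WT livers. The groups were apart and the difference was 0.46 (SE 0.12, limma adjusted p = 0.0373), a 1.38-fold rise. In its other probe sets the knockout values were also above all WT values, by 0.40 and 0.22, but were not called. The call was kept without knockout replicate 3 and lost without any other array. Cox7c had a larger difference of 0.54 (SE 0.18), was not called (limma adjusted p = 0.0725), and rests on a probe set with means of 5.09 log2 in knockout and 4.55 log2 in WT.

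In the ATP synthase, complex V, 4 of 17 tested genes fell and none rose. That is 23.5% and 0%, against 8.09% and 10.5% of all genes. Atp5b, the beta subunit that carries the catalytic sites, had 11.47, 11.33 and 11.50 log2 in the knockout livers, against 12.04, 11.96 and 12.05 log2 in the WT livers. The groups lay far apart (log2 difference -0.58, SE 0.09, limma adjusted p = 0.00425), and knockout was 1.49-fold lower. Atp5c1, the gamma subunit that turns inside the head, fell by 0.35 log2 (SE 0.10, limma adjusted p = 0.0407). Atp5a1, the alpha subunit, differed by -0.28 (SE 0.09, limma adjusted p = 0.0686) and was not called. Atp5j, coupling factor 6 of the outer stalk, had 10.83, 10.88 and 10.88 log2 in the knockout livers, against 11.34, 11.15 and 11.32 log2 in the WT livers (log2 difference -0.41, SE 0.09, limma adjusted p = 0.0224). Atp5c1 was not called without any 1 of the 6 arrays, and Atp5j kept its call only without knockout replicate 3 or WT replicate 2.

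Atp5g1, Atp5g2 and Atp5g3 encode the same mature c subunit of the rotor, and Atp5g1 was the one called. Atp5g1 had 9.90, 10.03 and 10.01 log2 in the knockout livers, against 10.43, 10.28 and 10.53 log2 in the WT livers (log2 difference -0.43, SE 0.11, limma adjusted p = 0.0281), without overlap, and kept its call only without WT replicate 2. Atp5g2 differed by 0.03 (SE 0.13) as deposited, and by -0.72 on the poly-A scale, and Atp5g3 by -0.11 (SE 0.09). Whether the c subunit genes differ from each other was not tested. The 5 small membrane subunits were not called as deposited, with differences from -0.30 for Atp5md to 0.07 for Atp5l. On the poly-A scale, where 75.7% of all genes and all 17 tested complex V genes fell, the differences ran from -1.05 to -0.68 for the same genes.

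**Figure D3:**
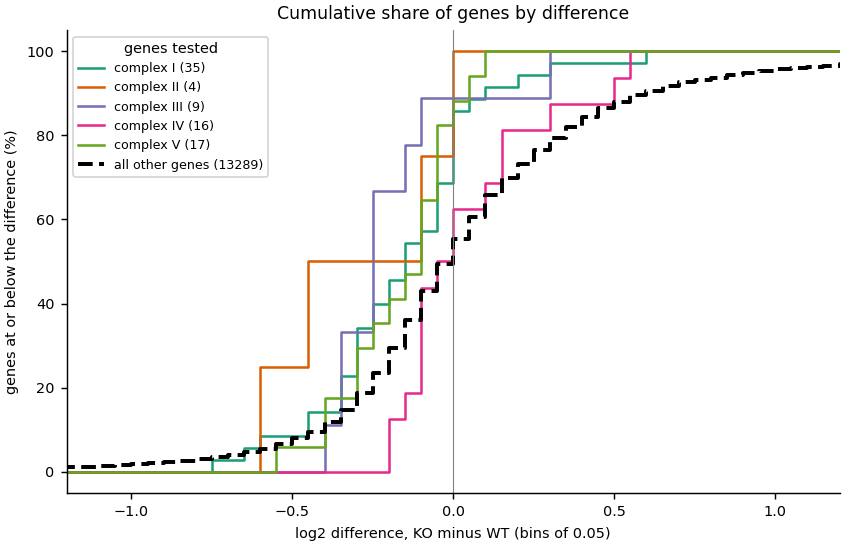
Cumulative share of genes, in percent, against the log2 difference, knockout minus WT as deposited, for each complex and for all other genes tested, with the number of genes in brackets. The curves of complexes I, II, III and V reach 85.7% to 100% at 0, complex IV reaches 62.5% and the other genes reach 55.4%; the medians of complexes IV and V and of all genes lie above 0 when arrays are centred on hepatocyte markers.

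Other probe sets of the same genes were examined because the brightest one need not be the most specific. Of 156 tested member probe sets, 22 fell and 2 rose, against 7.82% falling and 10.1% rising over all 27022 probe sets. No gene had probe sets called in opposite directions. In 5 genes whose brightest probe set was not called, another one fell: Ndufs8, Ndufb9, Ndufa7, Ndufc2 and Uqcr10. The clearest was Ndufs8, the protein that holds a pair of iron-sulphur clusters of complex I. Its brightest probe set, of a kind that can read related transcripts, had 10.70, 10.92 and 10.63 log2 in the knockout livers, against 11.16, 10.96 and 10.88 log2 in the WT livers. Another of its probe sets had 7.87, 8.20 and 8.15 log2 in the knockout livers, against 8.78, 8.81 and 8.72 log2 in the WT livers, far apart (-0.70, SE 0.13, limma adjusted p = 0.00799). In all, 3 of the 6 Ndufs8 probe sets fell, by 0.58 to 0.70 log2. Of the 8 fallen genes with more than 1 tested probe set, a further one fell in Ndufb2 and Ndufb5. The second probe set of Ndufb6 differed by -0.21 (SE 0.13) and was not called, and Ndufa10 was not called in the fit over all probe sets.

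**Figure D4:**
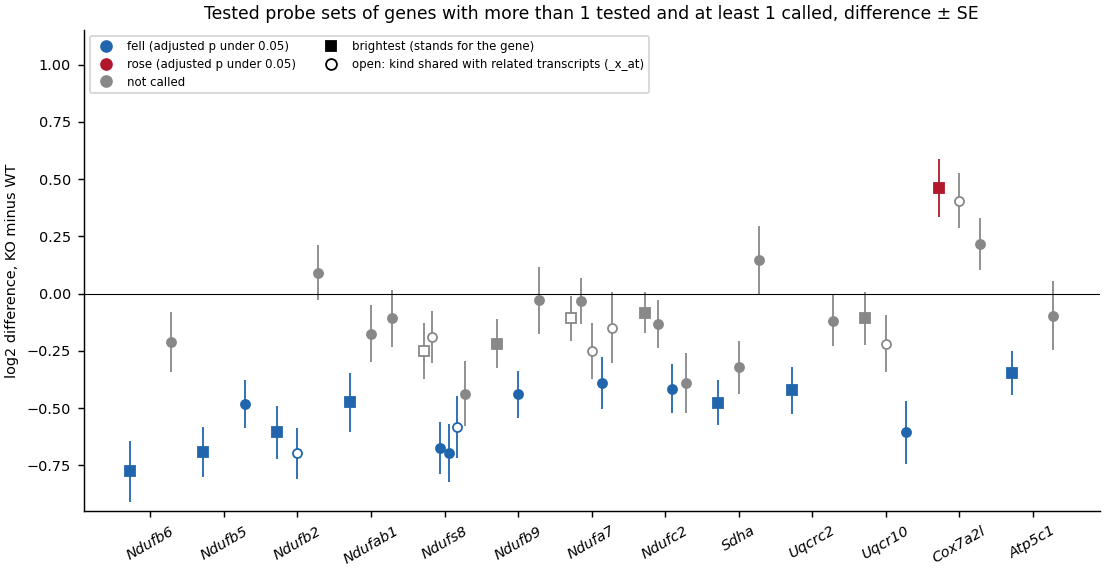
Log2 difference, knockout minus WT as deposited, with its standard error, of each tested probe set in genes that had more than 1 and at least 1 called. In Ndufs8 the brightest probe set (square) lies near -0.25 and 3 others between -0.58 and -0.70; the Cox7a2l values, above 0 here, lie below 0 on the poly-A scale.

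Genes of the same pathway outside the nuclear structural subunits were also measured. ND5, a complex I subunit encoded in mitochondrial DNA and the only such gene tested, had 12.48, 12.29 and 12.41 log2 in the knockout livers, against 12.96, 12.96 and 13.07 log2 in the WT livers (log2 difference -0.60, SE 0.09, limma adjusted p = 0.00329). Of 42 tested assembly factors, which build the complexes without staying in them, 14 fell and none rose (33.3% and 0%, against 8.09% and 10.5% of all genes). They include Ndufaf1 of complex I, which fell by 0.98 log2 (SE 0.12, limma adjusted p = 0.0016), Uqcc1 of complex III, by 0.99 log2 (SE 0.15, limma adjusted p = 0.00405), Sdhaf3 of complex II, by 0.83 log2 (SE 0.12, limma adjusted p = 0.00351), and Surf1 of complex IV. Surf1 had 7.14, 7.28 and 7.25 log2 in the knockout livers, against 8.01, 7.98 and 7.97 log2 in the WT livers, without overlap (log2 difference -0.76, SE 0.10, limma adjusted p = 0.00246). Of 14 genes that make coenzyme Q or feed electrons to it, 4 fell (28.6%) and none rose, among them Coq3, by 0.80 log2 (SE 0.12, limma adjusted p = 0.00425), and Etfdh, which passes on the electrons of fatty acid oxidation, by 0.63 log2 (SE 0.11, limma adjusted p = 0.00725). Etfa, which hands it those electrons, and Coq9, which helps make coenzyme Q, fell by 0.56 log2 (SE 0.11, limma adjusted p = 0.0101) and 0.50 log2 (SE 0.13, limma adjusted p = 0.0354). Of 17 genes of pyruvate dehydrogenase and the citric acid cycle, 3 fell (17.6%, against 8.09% of all genes) and none rose, a count too small to set the list apart. These were Idh3b, by 0.69 log2 (SE 0.11, limma adjusted p = 0.00493), Dlat by 0.74 log2 (SE 0.18, limma adjusted p = 0.0244) and Suclg1 by 0.39 log2 (SE 0.11, limma adjusted p = 0.0395). Coq9 and Suclg1 were not called without any 1 of the 6 arrays, and Dlat kept its call only without knockout replicate 3 or WT replicate 1, while ND5, Ndufaf1, Uqcc1, Sdhaf3, Surf1, Coq3, Etfdh, Etfa and Idh3b kept theirs in all 16 settings.

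Of 13 carrier and uncoupling genes 2 fell and 1 rose, or 15.4% and 7.69%, near the 8.09% and 10.5% of all genes. Slc25a5, the main ADP/ATP exchanger of most tissues, had 11.25, 11.17 and 11.39 log2 in the knockout livers, against 11.77, 11.81 and 11.88 log2 in the WT livers (log2 difference -0.55, SE 0.10, limma adjusted p = 0.00683). Slc25a4, its heart and muscle counterpart, had 9.20, 8.88 and 8.63 log2 in the knockout livers, against 7.60, 7.14 and 7.93 log2 in the WT livers. Every knockout value of Slc25a4 was above every WT value, and it rose 2.55-fold (log2 difference 1.35, SE 0.22, limma adjusted p = 0.00559). Slc25a11, the oxoglutarate carrier, fell by 0.49 log2 (SE 0.12, limma adjusted p = 0.0306). The calls of Slc25a4 and Slc25a5 were kept in all 16 settings, and that of Slc25a11 was lost without any 1 of the 6 arrays.

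Several measures moved with the genotype in the same arrays, and their part in these results was not tested. The 24 poly-A control probe sets, of RNAs added before labelling, were all brighter in every knockout array, by a mean of 0.75 log2. For Actb the excess of 3′ over 5′ signal, a measure of RNA quality and labelling, was 1.12 to 1.45 log2 in knockout and 0.81 to 0.97 in WT (two-sided exact permutation p = 0.1, the floor for 3 against 3). It was also higher in knockout, by 0.47 and 1.01 log2, for Gapdh and Pcx. Of 13 tested neutrophil markers 12 rose, and their summed linear signal was 13775 to 15518 in knockout and 608 to 752 in WT. All 5 tested markers of B and plasma cells rose, 2 of 6 stellate cell markers fell, and of 10 Kupffer cell markers 3 fell and 2 rose. Of 8 T and NK cell markers 3 rose, with a summed signal of 313 to 379 in knockout and 208 to 265 in WT. Of 4 erythroid markers 1 rose, with a summed signal of 414 to 789 in knockout and 318 to 347 in WT. Of 12 hepatocyte markers 2 fell and none rose, and their mean was 12.47 to 12.55 log2 in knockout and 12.60 to 12.73 in WT. All 12 differences lay below 0, with a median of -0.15, against -0.14 for the members and -0.05 over all genes. Over all genes 8.09% fell and 10.5% rose, and these marker counts are small. In whole liver, fewer cells of a type and less RNA per cell cannot be told apart. Sgpl1 itself, the targeted gene, read 2.78 ± 0.28 log2 in knockout and 6.75 ± 0.13 in WT (SD, n = 3 each).

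The scale of the arrays and single arrays set how many members were called. With arrays centred on hepatocyte markers 5 members fell, which are the 5 whose promoters are printed with that of Cox7a2l, and 4 rose, and over all genes 4.02% fell and 17.1% rose. With arrays centred on poly-A controls 76 members fell and none rose, and over all genes 75.7% fell and 2.82% rose. The members that fell numbered 7, 5 and 9 without knockout replicate 1, 2 and 3, and 7, 9 and 6 without WT replicate 1, 2 and 3. The share of members that fell, beside that of all genes, was 8.64% and 3.93% without knockout replicate 1, 6.17% and 4.09% without replicate 2, and 11.1% and 6.19% without replicate 3. It was 8.64% and 5.02% without WT replicate 1 and 11.1% and 5.31% without replicate 2, but 7.41% and 7.06%, nearly equal, without WT replicate 3. The centrings move all genes alike, so they cannot change the gap between the members' median and that of all genes.

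**Figure D5:**
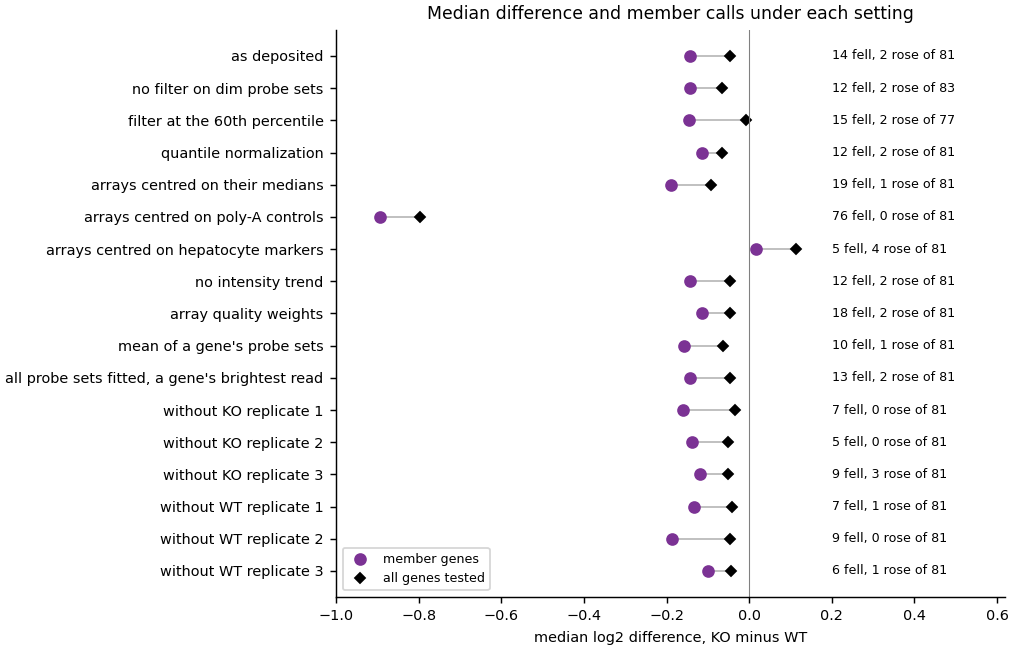
Median log2 difference, knockout minus WT, of the member genes (circles) and of all genes tested (diamonds) under each setting, with the number of members called beside it. The distance from circle to diamond is fixed by construction in the rows of the 3 centrings and in those that change only the trend or the genes fitted together; both lie right of 0 with hepatocyte centring and near -0.8 to -0.9 with poly-A centring.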

How the data were processed

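The 6 arrays, 1 per liver, were compared by genotype, 3 knockout against 3 WT. The authors deposited 1 value for each probe set and array, read here as log2 from the range of the values. MAS5 is named in the submitters' processing notes, without version or role, and no source used here tells how background, scale and probe summaries were handled. The number of arrays limits the precision.

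Of 45101 probe sets, 64 are array controls, and a platform annotation gives 34958 exactly 1 symbol, 932 several and 9211 none. A minimum mean at the 40th percentile (3.58 log2) kept 27022 probe sets, and each gene was read by its brightest one, giving 13370 genes. The comparison used limma 3.58.1 under R 4.3.3 (lmFit, eBayes with an intensity trend, two-sided), with no covariates. "Rose", "fell" and "called" mean p under 0.05 after Benjamini-Hochberg adjustment across every gene fitted, or every probe set where these are counted. Differences are knockout minus WT, and folds are taken from them. The fit was tested on simulated data. Single values per array were compared by exact permutation.

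Members and lists were chosen with earlier results of these data known, and so were the centrings on poly-A controls and on hepatocyte markers. Named are Sgpl1, all called members, fixed core and isoform subunits, the 3 highest and 3 lowest differences of a complex where described, and up to 4 members of each other list by adjusted p. Promoter windows are from RefSeq on GRCm38.p6, matched by gene identifier, as were all 83 members. None of them lies within 100 annotated genes of Sgpl1 on chromosome 10. Replicates are separate animals, numbered only to name them. Settings tried are no filter, a 60th percentile filter, 4 rescalings, no trend, array weights, probe sets averaged by gene, all probe sets fitted, and each array left out.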

Additional observations from a re-analysis of the deposited data

How the results depend on the processing

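No paired analysis was possible because the labels pair no animals across genotypes. Ndufb2, Ndufb5, Ndufb6, Sdhb and Atp5b kept their calls in all 16 settings, and no called fall changed sign in any of them. Centred on poly-A controls, which shifts every difference by -0.75 log2, 76 members fell and 0 rose (33, 4, 9, 13 and 17 fell in complexes I to V), medians were -0.89 for members and -0.92, -1.05, -1.02, -0.81, -0.90 for complexes I to V, 149 member probe sets fell and 0 rose, 75.7% of all genes fell and 2.82% rose. The lists then had 39 assembly factors, 13 coenzyme Q and feeder genes, 16 citric acid cycle genes, 10 carriers, 17 biogenesis regulators and 72 mitochondrial ribosomal protein genes called. Differences above 0 became -0.70 for Ndufs7, -0.49 for Ndufb7, -0.19 for Ndufa2, -0.50 for Uqcrh, -0.66 for Cox4i1, -0.63 for Cox6a2, -0.64 for Cox6b1, -0.46 for Cox7a1, -0.29 for Cox7a2l, -0.21 for Cox7c, -0.72 for Atp5g2, -0.68 for Atp5l. Centred on hepatocyte markers, 5 members fell and 4 rose (3, 1, 0 and 1 fell in complexes I, II, III and V), medians were 0.015 for members and -0.013, -0.14, -0.11, 0.098, 0.013 for complexes I to V, 8 member probe sets fell and 5 rose, 4.02% of all genes fell and 17.1% rose, and 8 assembly factors were called. Differences below 0 became 0.11 for Ndufa4l2, 0.14 for Sdhc, 0.037 for Sdhd, 0.14 for Cox5a, 0.056 for Cox5b, 0.057 for Cox4i2, 0.12 for Cox6a1, 0.074 for Cox7a2, 0.045 for Cox8b, 0.053 for Atp5g3. Centred on array medians, 1 member gene and 1 member probe set rose, 10 complex I genes fell, 13 mitochondrial ribosomal protein genes were called, and Atp5g2 was at -0.013. With quantile normalization 16 mitochondrial ribosomal protein genes were called, where 9.61% of all genes fell and 10.2% rose, and Sdhc was at 0.041. With array weights 7 citric acid cycle genes were called, where 10.6% of all genes fell and 12.8% rose, and Sdhc was at 0.0028. With probe sets averaged by gene 1 member rose, 1 gene fell in complex II and 1 in complex III, where 8.56% of all genes fell and 9.41% rose. The complex II median was then -0.17, 5 citric acid cycle genes were called and Ndufs7 was at -0.042. Without the filter 1 member probe set rose. With 1 array left out, 5 to 9 members fell and 0 to 3 rose (3 to 4, 1 to 2, 0 to 1 and 1 to 3 fell in complexes I, II, III and V), 8 to 15 member probe sets fell and 0 to 3 rose, 3.93 to 7.06% of all genes fell and 5.92 to 10.7% rose, and the complex IV median ran from -0.066 to 0.052. Called genes then numbered 8 to 12 for assembly factors, 1 to 4 for the citric acid cycle, 0 to 4 for biogenesis regulators and 3 to 6 for mitochondrial ribosomal proteins. Differences that crossed 0 when 1 array was left out ran from -0.12 to 0.19 for Ndufs7, -0.098 to 0.049 for Sdhc, -0.072 to 0.027 for Cox5a, -0.0095 to 0.20 for Cox6a2, -0.70 to 0.51 for Cox6b2, -0.39 to 0.20 for Cox8b, -0.16 to 0.046 for Ndufa4l2, -0.037 to 0.15 for Atp5g2. The centrings move all differences of an array alike, and the causes of the other shifts were not tested. With no detection calls in use here, a dim value cannot be told from background.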

Other observations

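Regulators of mitochondrial biogenesis and the mitochondrial ribosome were also measured. Of 19 tested regulators and mitochondrial DNA maintenance genes, 3 fell and 1 rose (15.8% and 5.26%, against 8.09% and 10.5% of all genes). Ppargc1a, a coactivator that drives mitochondrial gene expression and is raised by fasting in liver, had 8.35, 7.57 and 6.56 log2 in the knockout livers, against 6.08, 5.11 and 6.32 log2 in the WT livers. All knockout values lay above all WT values, and it rose 3.15-fold (log2 difference 1.66, SE 0.46, limma adjusted p = 0.0418), and kept its call only without knockout replicate 3 or WT replicate 3. Tefm, an elongation factor of mitochondrial transcription, fell by 0.54 log2 (SE 0.11, limma adjusted p = 0.0155), Tfb2m, which starts that transcription, by 0.49 log2 (SE 0.11, limma adjusted p = 0.0194), and Polg2, of the mitochondrial DNA polymerase, by 0.57 log2 (SE 0.13, limma adjusted p = 0.0227). Tefm was not called without knockout replicate 1 or 2, Tfb2m without knockout replicate 1 or 2 or WT replicate 1, and Polg2 kept its call only without WT replicate 2. Of 76 mitochondrial ribosomal protein genes, 6 fell and 1 rose (7.89% and 1.32%, against 8.09% and 10.5% of all genes). A difference below 0 as deposited was found in 65 of them, or 85.5%, against 55.6% of all genes. Mrpl49 was the one with the smallest adjusted p, at 5.93, 6.498 and 6.39 log2 in the knockout livers, against 7.35, 7.26 and 7.52 log2 in the WT livers (log2 difference -1.10, SE 0.17, limma adjusted p = 0.00389).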
